A study of Mus musculus with 4 samples.

Results

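The genes described here encode 5 small surface proteins of the mouse Ly6 family: Ly6a (Sca-1), Ly6c1, Ly6c2, Ly6e and Ly6d. They were taken by symbol, and all 5 had a row in the deposited table of 17039 genes. Ly6 proteins are short chains with a compact fold held by disulfide bonds, and most are fixed to the outer membrane by a glycosylphosphatidylinositol (GPI) anchor. In the mouse many of them are used as antibody markers of blood cells. Sca-1 marks haematopoietic stem cells and is raised by interferons on lymphocytes, Ly6C is read on memory CD8 T cells and on inflammatory monocytes, and Ly6d marks B lineage cells.

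RNA was sequenced from splenic T cells of C57BL/6 mice about a month after an intramuscular injection of adeno-associated virus. In the AAV-IL-27 group the virus expressed interleukin-27 (IL-27), a cytokine that signals through the JAK-STAT pathway, and in the AAV-ctrl group it was a control virus. Each group held 2 libraries, named replicates 1 and 3, and the design text speaks of 4 mice. All libraries thus come from virus-injected animals, and the cytokine was produced in the body and not added to the cells. The T cells were separated by MACS, a magnetic sort, and the title of the series calls them CD8+.

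Total counts lay between 15742523 and 16182453 per library. Of the 17039 genes, 12887 were tested with edgeR's quasi-likelihood test, and 5023 of these (39.0%) passed an adjusted p of 0.05. Higher levels in AAV-IL-27 were called for 2745 genes (21.3%) and lower ones for 2278 (17.7%), a split that turned to 2362 and 2979 with upper-quartile factors and to 1368 and 3845 when scaled to a list of T cell genes. The defining T cell genes were present in every library, with Cd3e at 209 and 193 FPKM in AAV-IL-27, against 172 and 175 FPKM in AAV-ctrl, and Cd8a at 408 and 349 FPKM in AAV-IL-27, against 321 and 335 FPKM in AAV-ctrl. Cd4 was low, between 8.21 and 10.1 FPKM over all libraries. B cell genes were not absent, with a summed level of 1079 to 2301 FPKM for a list of 14 over the libraries. FPKM scale each count by the length of its gene and the size of its library, so they allow levels to be compared between genes.

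The 5 genes lie within 350 kb of chromosome 15 (GRCm38.p6). From the start of the stretch they run as Ly6d (NCBI Gene 17068, 74762056 to 74763567, minus strand), Ly6e (17069, 74955025 to 74959904, plus strand), Ly6a (110454, 74994877 to 74998031, minus strand), Ly6c1 (17067, 75044018 to 75048920, minus strand) and Ly6c2 (100041546, 75108161 to 75112066, minus strand). Ly6c1 and Ly6c2 are near-copies: their coding sequences of 393 bases each were 97.7% identical in the GENCODE annotation of the same build. The Ly6a coding sequence was 81.8% identical to that of Ly6c1, and 86.3% to that of its neighbour Ly6i. Ly6e and Ly6d stood further off, with 51.9% and 45.6% identity to Ly6a. The likeness matters for counting. Of the 795 stretches of 50 bases in the main Ly6c1 transcript, 31.7% also occurred in a Ly6c2 transcript, and 5.03% in a Ly6a transcript, while no such stretch of Ly6e or Ly6d occurred in another of the 5 genes. In the deposited table the counts of Ly6e and Ly6d were whole numbers in all 4 libraries, and those of Ly6a, Ly6c1 and Ly6c2 were fractional in all 4. Values of Ly6c1 and Ly6c2 taken singly are therefore uncertain, and their sum is given as well.

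The RefSeq promoter table held 2 of the 5 genes, Ly6c1 and Ly6c2, and these are shown because the pair differs so little in its coding sequence and so much in its level. Ly6g, a further gene of the cluster and the neutrophil antigen of the Gr-1 antibody, is set beside them. Each sequence is the 250 bases before an annotated start, read 5′ to 3′ on the gene's strand in GRCm38.p6. Where a gene had several starts, the one with the most similar window in the others was used. The starts used, 75048837 for Ly6c1, 75111971 for Ly6c2 and 75155329 for Ly6g, lie inside the gene spans. Each window therefore overlaps its gene in part. The windows are chr15:75048838-75049087 (minus strand) for Ly6c1, chr15:75111972-75112221 (minus strand) for Ly6c2 and chr15:75155079-75155328 (plus strand) for Ly6g. Capitals mark the letters TATAAA.
Ly6c1: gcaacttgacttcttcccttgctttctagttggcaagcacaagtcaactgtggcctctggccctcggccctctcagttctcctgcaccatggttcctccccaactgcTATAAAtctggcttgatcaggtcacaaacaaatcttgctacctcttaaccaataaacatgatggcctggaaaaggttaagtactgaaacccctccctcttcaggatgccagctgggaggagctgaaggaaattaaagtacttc
Ly6c2: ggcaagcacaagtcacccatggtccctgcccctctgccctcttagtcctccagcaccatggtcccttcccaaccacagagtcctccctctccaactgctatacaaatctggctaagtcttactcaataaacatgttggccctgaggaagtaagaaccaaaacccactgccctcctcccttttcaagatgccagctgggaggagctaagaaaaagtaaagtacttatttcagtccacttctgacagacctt
Ly6g: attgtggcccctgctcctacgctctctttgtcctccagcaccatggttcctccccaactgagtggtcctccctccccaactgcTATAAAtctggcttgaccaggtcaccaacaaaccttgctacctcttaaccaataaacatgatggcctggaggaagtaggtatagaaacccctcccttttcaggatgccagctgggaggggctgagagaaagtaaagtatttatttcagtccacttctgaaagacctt
Aligned over their whole length, the Ly6c1 and Ly6c2 windows were identical at 57.7% of 284 positions, the Ly6c1 and Ly6g windows at 66.2% of 275 and the Ly6c2 and Ly6g windows at 69.0% of 274. The letters TATAAA stood at position -143 of Ly6c1 and -167 of Ly6g, counted from the start used, and were not in the Ly6c2 window. From the other annotated Ly6g start, 75155261, the same letters stood at -99. Searched on both strands, 12.4% of the 32851 windows of the same length in the table held them. The letters of a STAT motif (TTCNNNGAA, in 7.02% of all windows), of an interferon response motif (GAAA, any 2 letters and GAAA, in 2.98%) and of an AP-1 motif (TGANTCA, in 6.75%) were in none of the 3 windows.

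Of the 5 genes, 4 were called higher in AAV-IL-27 and 1 did not pass, where 21.3% of all tested genes were called higher. The groups did not overlap for any of the 5, which held for 71.5% of all tested genes. Sca-1 had the largest change of the 5. Ly6a stood at 545 and 575 FPKM in the AAV-IL-27 libraries, against 104 and 86.0 FPKM in the AAV-ctrl libraries. The means were 560 ± 21.4 FPKM in AAV-IL-27 and 94.9 ± 12.6 FPKM in AAV-ctrl (SD, n = 2 each). Both AAV-IL-27 libraries were far above both AAV-ctrl libraries, and the difference between groups was many times the spread within them. The log2 fold change was 2.61 ± 0.088 (SE), a level 6.11-fold higher in AAV-IL-27 (edgeR adjusted p = 1.54e-06). Of the 12887 genes tested, 114 had a larger log2 fold change. By FPKM, Ly6a ranked 120th and 115th of all genes in the AAV-IL-27 libraries, against 568th and 742nd in the AAV-ctrl libraries. Under 13 other settings, scalings, tools and left-out libraries included, the log2 fold change stayed between 2.43 and 2.75 and passed each time.

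Both Ly6C genes rose, by about the same factor. Ly6c2, the more abundant of the pair, stood at 1006 and 827 FPKM in AAV-IL-27, against 430 and 405 FPKM in AAV-ctrl. Its log2 fold change was 1.19 ± 0.097 (2.28-fold, edgeR adjusted p = 0.000339). Ly6c1 was much lower, at 24.7 and 20.4 FPKM in AAV-IL-27, against 11.4 and 10.1 FPKM in AAV-ctrl, with a log2 fold change of 1.14 ± 0.14 (2.21-fold, adjusted p = 0.000248). The groups did not overlap for either gene, and replicate 1 was the higher AAV-IL-27 library for both. The FPKM ratio of Ly6c1 to Ly6c2 was 0.0245 and 0.0246 in AAV-IL-27, against 0.0265 and 0.0249 in AAV-ctrl, so it hardly moved. How far this steadiness comes from the way shared reads were split was not tested. With the counts of both genes added up before the fit, the log2 fold change was 1.19 (edgeR adjusted p = 0.000352). It lay between 0.99 and 1.32 under the 13 other settings and passed in all of them.

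Ly6e, also called Sca-2 or thymic shared antigen 1, was abundant and nearly level. It stood at 840 and 881 FPKM in AAV-IL-27, against 824 and 813 FPKM in AAV-ctrl. The difference between groups was of the size of the gap between the AAV-IL-27 libraries. The log2 fold change of 0.12 ± 0.044 (1.09-fold) passed narrowly (edgeR adjusted p = 0.0486). This call was fragile: it was kept under 3 of 13 other settings, DESeq2 gave an adjusted p of 0.0926, a replicate block 0.0523, and scaled to the T cell list the value was -0.06 (adjusted p = 0.666). That scaling moved the median of all genes to -0.193 on the log2 scale, and relative to this median Ly6e stood at 0.13. Leaving out AAV-IL-27 replicate 3, AAV-ctrl replicate 1 or AAV-ctrl replicate 3 ended the call as well (adjusted p = 0.132, 0.226 and 0.287).

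Ly6d, the ThB antigen of B cells and thymocytes, was the member with lower values in AAV-IL-27, and it did not pass. It stood at 126 and 185 FPKM in AAV-IL-27, against 256 and 227 FPKM in AAV-ctrl. The AAV-IL-27 libraries lay below the AAV-ctrl libraries but far from each other: on the log2 CPM scale replicate 1 was below replicate 3 by a difference of -0.55, where the median size of that difference over all tested genes was 0.105. The log2 fold change was -0.58 ± 0.24 (edgeR adjusted p = 0.179). Leaving out either AAV-IL-27 library removes that spread by construction, and the values then passed, at -0.33 without replicate 1 (adjusted p = 0.00898) and -0.89 without replicate 3 (adjusted p = 7.88e-05).

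**Figure D1:**
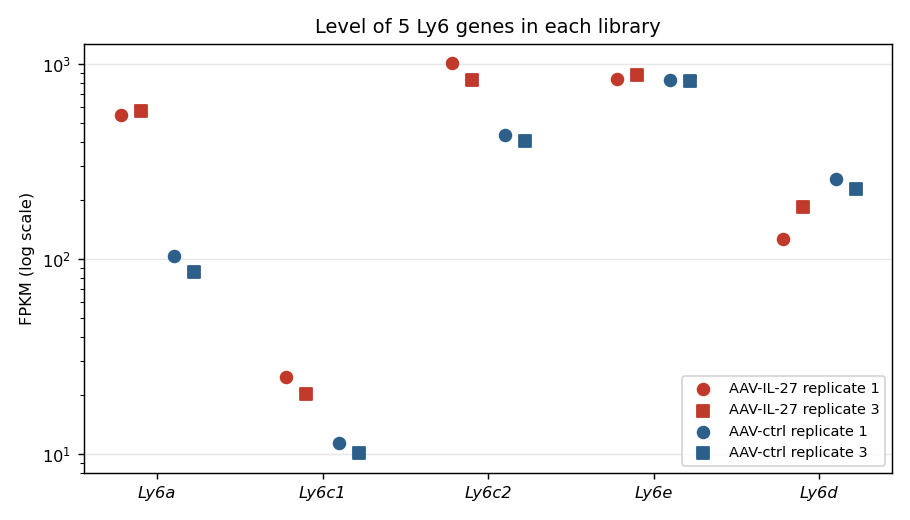
FPKM of the 5 genes in each library, on a log scale; red points are AAV-IL-27, blue points AAV-ctrl, circles replicate 1 and squares replicate 3. Ly6a stood at 545 and 575 FPKM in AAV-IL-27, against 104 and 86.0 FPKM in AAV-ctrl, while Ly6e lay between 813 and 881 FPKM in all libraries.

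The order of the 5 genes by FPKM differed between the groups. In both AAV-IL-27 libraries Ly6c2 and Ly6e led, with ranges that overlapped (827 to 1006 and 840 to 881 FPKM), followed by Ly6a, Ly6d and Ly6c1. In both AAV-ctrl libraries the order was Ly6e, Ly6c2, Ly6d, Ly6a and Ly6c1, with no overlap between neighbours in the order. Ly6a thus passed Ly6d: the FPKM ratio of Ly6a to Ly6d was 4.31 and 3.11 in AAV-IL-27, against 0.406 and 0.378 in AAV-ctrl. Set against its close neighbour Ly6e, Ly6a had a ratio of 0.648 and 0.653 in AAV-IL-27, against 0.126 and 0.106 in AAV-ctrl. With 2 libraries against 2, an exact two-sided permutation test of such a ratio cannot give a p below 0.333, so none was run. Together the 5 genes took 0.301% and 0.302% of all counts in AAV-IL-27, against 0.219% and 0.211% in AAV-ctrl. Of their summed FPKM, Ly6a made up 21.4% and 23.1% in AAV-IL-27, against 6.39% and 5.58% in AAV-ctrl.

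Around Sca-1 on chromosome 15, the called rises lay on one side of the stretch. Within 500 kb of the stretch that holds the 5 genes, 15 further genes had a row and 9 of them were tested. In the stretch from Ly6e to Ly6g, all 7 tested genes rose, where 21.3% of all tested genes were called higher. They were Ly6e, Ly6i, Ly6a, Ly6c1, Ly6c2, I830127L07Rik and Ly6g. Ly6e is the fragile call given above, with a value below 0 when scaled to the T cell list. Ly6g had 0 and 1 counts in AAV-ctrl. It was kept for testing only through its AAV-IL-27 counts and could be called in no other direction. In the stretch from Arc to 2010109I03Rik, where Ly6d lies, 7 genes were tested, 2 fell (Jrk and Lynx1) and none rose by edgeR. That is 28.6% called, against 39.0% over all genes, where 17.7% were called lower and 21.3% higher. At an unadjusted p under 0.05 none of these 7 was higher and 3 were lower, and DESeq2 called 6 of 7 higher in the first stretch and 0 higher and 1 lower in the second. This division was noticed in the values and carries no test. Over all genes tested on chromosome 15, 41.7% of 499 passed, close to the 39.0% of the whole table.

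**Figure D2:**
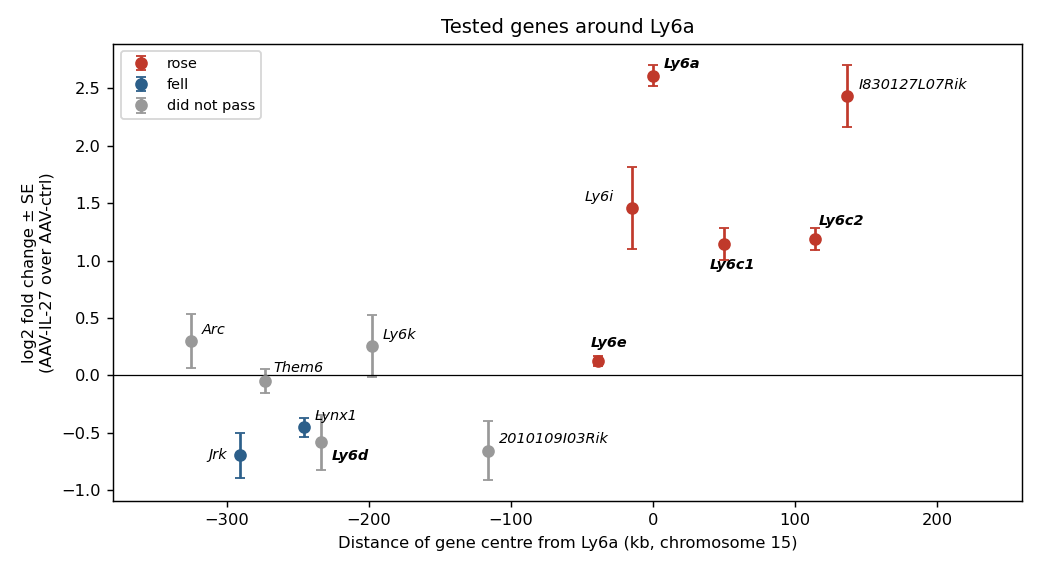
Log2 fold change (AAV-IL-27 over AAV-ctrl) with its SE against the distance of each tested gene's centre from Ly6a in kb; names in bold are the 5 described genes, and Ly6g is left out because AAV-ctrl held 1 count. The points from Ly6e rightwards are above 0 and peak at Ly6a (2.61), while those left of Ly6e lie between -0.70 and 0.30. Scaled to the T cell list, Ly6e was below 0.

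The other family members of this cluster had low levels. Of 22 names on the list, 10 had a row and 6 were tested, of which 3 rose, 1 fell and 2 did not pass (66.7% called, against 39.0% over all genes). I830127L07Rik, named Ly6a2 in RefSeq, stood at 9.16 and 14.6 FPKM in AAV-IL-27, against 2.50 and 2.04 FPKM in AAV-ctrl (log2 fold change 2.43 ± 0.27, edgeR adjusted p = 0.000238). Ly6i stood at 2.34 and 3.69 FPKM in AAV-IL-27, against 0.93 and 1.43 FPKM in AAV-ctrl (1.46 ± 0.36, adjusted p = 0.0108). Its adjusted p was 0.0787 with AAV-IL-27 replicate 3 left out and 0.120 with AAV-ctrl replicate 1 left out. Ly6g had 38.01 and 62 expected counts in AAV-IL-27, against 0 and 1 in AAV-ctrl (edgeR adjusted p = 0.000125). Per total count that is a ratio of 97.7, with a 95% exact counting interval from 17.1 to 3897. All 3 of these genes were higher in AAV-IL-27 replicate 3 than in replicate 1. The counts of Ly6i and I830127L07Rik were fractional in every library. Of the stretches of 50 bases in the main Ly6i transcript, 2.80% also occurred in a Ly6a transcript, and for I830127L07Rik this share was not computed. How far the splitting of reads shared with other genes entered the values of Ly6i and I830127L07Rik was not tested. Lynx1, which acts on nicotinic acetylcholine receptors, fell by 0.45 ± 0.080 on the log2 scale (7.99 and 8.54 FPKM in AAV-IL-27, against 12.4 and 11.1 FPKM in AAV-ctrl, edgeR adjusted p = 0.00204). Jrk, a neighbour outside the family, was at -0.70 ± 0.19 (adjusted p = 0.0193). Its adjusted p was 0.0667 with AAV-IL-27 replicate 1 left out, 0.167 with AAV-ctrl replicate 1 left out, 0.0652 with AAV-ctrl replicate 3 left out and 0.124 by DESeq2. Ly6k (0.26 ± 0.27) and 2010109I03Rik (-0.66 ± 0.26, Ly6m in RefSeq) did not pass. Psca, Slurp2, Gml and Gml2 had a row but too few counts to be tested.

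Family members on other chromosomes held calls in both directions. Of 20 listed, 6 were tested, 1 rose and 2 fell (50.0% called, near the 39.0% over all genes for so few). Lypd6b stood at 1.90 and 2.42 FPKM in AAV-IL-27, against 9.05 and 8.96 FPKM in AAV-ctrl (a fold of 0.250, edgeR adjusted p = 5.47e-06). Plaur, the urokinase receptor, was at -0.47 ± 0.10 (edgeR adjusted p = 0.00621, and 0.0776 with AAV-ctrl replicate 1 left out). Cd177, a surface protein of neutrophils, rose, at 5.57 and 9.83 FPKM in AAV-IL-27, against 0.46 and 0.33 FPKM in AAV-ctrl.

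Genes that build the GPI anchor held no called rise. With 29 of them tested, edgeR called 0 higher and 7 lower (24.1% called, median log2 fold change -0.06, against 39.0% and -0.01 over all genes). At an unadjusted p under 0.05 none was higher and 7 were lower, and by DESeq2 0 rose and 4 fell. Pgap1, which removes an acyl chain from the anchor, fell by 1.24 ± 0.10 on the log2 scale, and Piga, part of the enzyme of the first step, fell by 0.62 ± 0.095. Among 20 tested genes of other GPI-anchored proteins, 8 were called higher and 5 lower, with a median of 0.14. Cd160, a receptor of cytotoxic lymphocytes, rose by 0.99 ± 0.089 and Bst2, tetherin, by 0.62 ± 0.063. Nt5e, the ectoenzyme CD73, fell by 0.96 ± 0.099. No tested gene of this list had a log2 fold change above that of Ly6a, and 1, Bst1, was above Ly6c2.

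Ly6a, Ly6c and Ly6e are all known as interferon-inducible in mouse lymphocytes, and their log2 fold changes lay far apart among those of such genes here. Of the 40 interferon-inducible genes that were tested, 35 rose and 0 fell by edgeR (87.5%, against 39.0% over all genes, median 0.81). At an unadjusted p under 0.05, 37 were higher and 0 lower, and by DESeq2 34 rose and 0 fell. The 5 that did not pass were Ifi35, Ifi27l2a, Rsad2, Ifit3 and Ifit1. A log2 fold change above that of Ly6a was found for 1 of the 40, the GTPase Iigp1 (4.62 ± 0.067), and Igtp, another GTPase, lay beside Ly6a at 2.59 ± 0.052. Above Ly6c2 were 13 of the 40. Below Ly6e was 1, the antiviral gene Ifit1. Ly6e thus stood near the lower end of the list, and its direction turned under the T cell scaling given above.

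**Figure D3:**
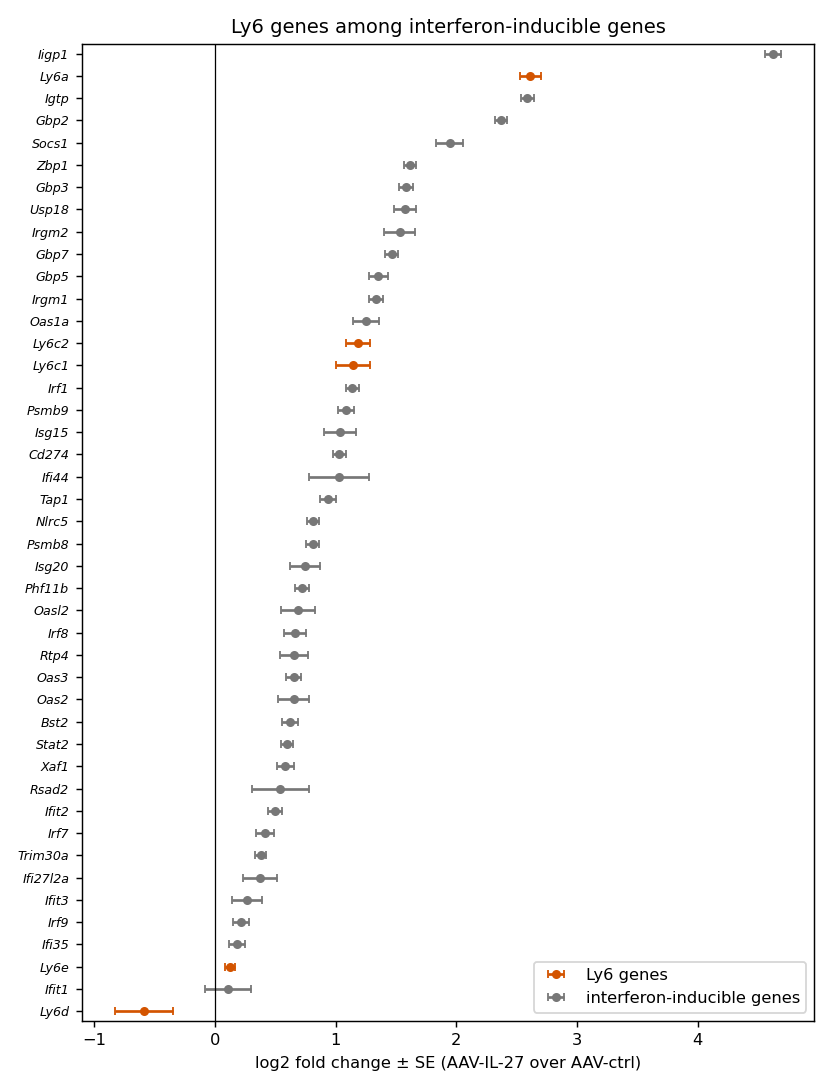
Log2 fold change (AAV-IL-27 over AAV-ctrl) with its SE for the tested interferon-inducible genes (grey, 1 of the 40 not drawn) and the 5 Ly6 genes (orange), sorted by value. Ly6a stands below Iigp1 alone, Ly6c2 and Ly6c1 above the list's median of 0.81, Ly6e above Ifit1 alone and Ly6d below 0. Scaled to the T cell list, Ly6e was at -0.06.

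By their values over the 4 libraries, the genes most like Ly6a among the 10599 whose log2 CPM averaged 2 or more were Apol10b, Igtp and Tgm2 (Euclidean distance of centred log2 CPM of 0.135, 0.166 and 0.167). Apol10b stood at 4.93 and 4.88 FPKM in AAV-IL-27, against 0.92 and 0.80 FPKM in AAV-ctrl. Nearest to Ly6c2 were Ctla2a, Rgs12 and Wdr95 (0.0652, 0.0661 and 0.0827), and nearest to Ly6c1 were Trp53inp2, Ly6c2 itself and Psmb9 (0.0700, 0.0830 and 0.0915). Nearest to Ly6e were Papss1, Hspbp1 and Cad (0.00461, 0.00630 and 0.00786), none of which passed by edgeR (adjusted p = 0.235, 0.237 and 0.0962). Over only 4 libraries such distances mostly restate the difference between the groups.

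Among 16 surface markers that are read together with Ly6C and Sca-1 on CD8 T cells, 9 rose, 3 fell and 4 did not pass (75.0%, against 39.0% over all genes, median 0.34). Cxcr3, a chemokine receptor of effector and memory cells, rose by 1.59 ± 0.082, and Klrg1, a marker of terminal effector cells, by 1.55 ± 0.24. Il7r, the interleukin-7 receptor, fell by 1.25 ± 0.091 and Ccr7, a lymph node homing receptor, by 0.44 ± 0.065. Il18r1, a chain of the interleukin-18 receptor, was at -0.28 ± 0.080 (adjusted p = 0.0249, and 0.187 with AAV-ctrl replicate 1 left out, 0.0836 with AAV-IL-27 replicate 1 left out and 0.0628 with a replicate block). Cd44, an adhesion receptor of activated and memory cells, stood at 30.1 and 28.2 FPKM in AAV-IL-27, against 29.0 and 28.3 FPKM in AAV-ctrl. It was among the 4 that did not pass.

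Other cells of the spleen also carry Ly6 proteins, and in such bulk libraries fewer cells of a type and less RNA per cell cannot be told apart. Ly6d went in the order of the B cell genes from library to library. Of 14 B cell genes, 0 rose, 6 fell and 8 did not pass by edgeR (42.9%, against 39.0% over all genes, median -0.65), while at an unadjusted p under 0.05 none was higher and 9 were lower, and by DESeq2 0 rose and 10 fell. Their summed level was 1079 and 1486 FPKM in AAV-IL-27, against 2301 and 2034 FPKM in AAV-ctrl, with none of the 14 at 0. Vpreb3 fell by 1.86 ± 0.20 and Fcrla, a B cell Fc receptor-like protein, by 0.62 ± 0.092 on the log2 scale. The ratio of Ly6d to this sum was 0.117 and 0.124 in AAV-IL-27, against 0.111 and 0.112 in AAV-ctrl, so relative to the B cell genes Ly6d was not lower in AAV-IL-27. The part of B cells in the Ly6d values was not tested beyond this ratio.

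Ly6a and Ly6c2 did not go in that order. Set over the summed FPKM of 14 T cell genes, Ly6a had a ratio of 0.161 and 0.191 in AAV-IL-27, against 0.0365 and 0.0298 in AAV-ctrl, and Ly6c2 one of 0.297 and 0.274 in AAV-IL-27, against 0.151 and 0.140 in AAV-ctrl. Neither overlapped between the groups. Ly6e did, at 0.249 and 0.293 in AAV-IL-27, against 0.290 and 0.281 in AAV-ctrl. The T cell genes themselves summed to 3381 and 3012 FPKM in AAV-IL-27, against 2840 and 2891 FPKM in AAV-ctrl, with 9 of the 14 called higher and 1 lower (71.4% called, against 39.0% over all genes).

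**Figure D4:**
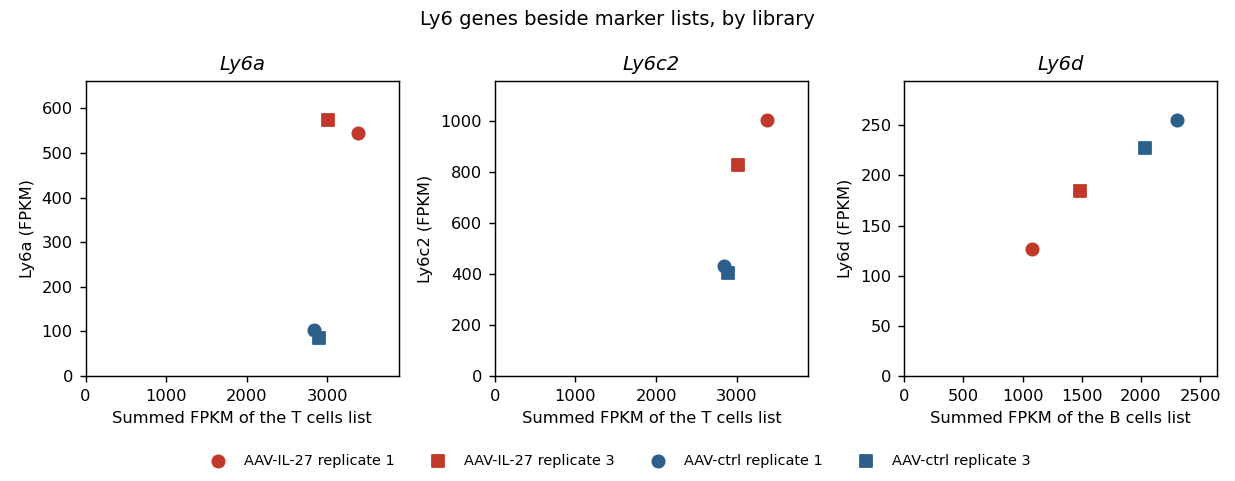
FPKM of Ly6a and Ly6c2 against the summed FPKM of the T cell list, and of Ly6d against that of the B cell list, 1 point per library; red is AAV-IL-27, blue AAV-ctrl, circles replicate 1 and squares replicate 3. Ly6d climbs with the B cell list across all 4 libraries, while Ly6a and Ly6c2 stand apart by group at T cell sums of 2840 to 3381 FPKM.

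Neutrophil genes were far higher in AAV-IL-27. Of the 16 on the list, edgeR called 15 higher and none lower (93.8% called, against 39.0% over all genes), with Retnlg not passing. DESeq2 also called 15 higher and none lower, with Cxcr2 not passing. At an unadjusted p under 0.05, 16 were higher and 0 lower. Some had almost no counts in AAV-ctrl, such as Fcnb (2 and 0), Prtn3 (1 and 0) and Ly6g (0 and 1). Such genes were kept for testing only through AAV-IL-27 and could be called in no other direction. The summed level of the 16 was 1055 and 1729 FPKM in AAV-IL-27, against 39.0 and 28.0 FPKM in AAV-ctrl. Ly6g is on this list, and it, Ly6i and I830127L07Rik shared the order of its sums within AAV-IL-27, replicate 3 above replicate 1, whereas Ly6c1 and Ly6c2 had the opposite order. Ly6a followed the order of these sums in all 4 libraries. The ratio of Ly6a to the sum without Ly6g was 0.518 and 0.333 in AAV-IL-27, against 2.66 and 3.08 in AAV-ctrl, so the neutrophil genes differed by the larger factor. The sum over 14 monocyte genes was 442 and 573 FPKM in AAV-IL-27, against 366 and 361 FPKM in AAV-ctrl. By edgeR 1 of them rose (Chil3) and 1 fell (14.3% called, against 39.0% over all genes). DESeq2 called 4 of the 14 higher and 1 lower, and at an unadjusted p under 0.05, 2 were higher and 1 lower. With AAV-ctrl replicate 1 or 3 left out, Chil3 had an adjusted p of 0.166 or 0.169. Ccr2, the chemokine receptor of Ly6C-high monocytes, stood at 22.9 and 16.4 FPKM in AAV-IL-27, against 15.1 and 16.2 FPKM in AAV-ctrl (adjusted p = 0.183 by edgeR and 0.0352 by DESeq2).

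Plasma cell genes summed to 432 and 817 FPKM in AAV-IL-27, against 374 and 409 FPKM in AAV-ctrl, with 5 of 12 called higher, Prdm1 furthest, and 1, Tnfrsf13b, lower (50.0% called, against 39.0% over all genes). With AAV-ctrl replicate 1 left out, Tnfrsf13b had an adjusted p of 0.0607. Genes of plasmacytoid dendritic cells summed to 282 and 245 FPKM in AAV-IL-27, against 257 and 270 FPKM in AAV-ctrl, with 3 of 12 called higher and 3 lower (also 50.0%). Endothelial genes, since endothelium carries Ly6c1 and Ly6a, were low: the 11 of 12 listed genes with a row summed to 51.3 and 54.0 FPKM in AAV-IL-27, against 73.98 and 74.16 FPKM in AAV-ctrl. Cldn5, a defining endothelial gene, was listed at 0 in 3 of the 4 libraries. Pecam1 and Eng fell while Kdr and Cdh5 rose (57.1% of 7 called, against 39.0% over all genes). The Cdh5 call was lost with AAV-IL-27 replicate 1 left out (adjusted p = 0.0540), with AAV-ctrl replicate 1 left out (0.125), by DESeq2 (0.0601) and when scaled to the T cell list (0.0584). Natural killer cell genes summed to 942 and 868 FPKM in AAV-IL-27, against 569 and 549 FPKM in AAV-ctrl. Yet 9 of the 14 were called lower and 4 higher (92.9% called, against 39.0% over all genes, median log2 fold change -1.41). Genes of red pulp macrophages summed to 43.1 and 49.1 FPKM in AAV-IL-27, against 187 and 110 FPKM in AAV-ctrl. Of these 12, edgeR called 0 higher and 9 lower (75.0% called, against 39.0% over all genes). DESeq2 called 0 higher and 12 lower, and at an unadjusted p under 0.05 none was higher and 12 were lower. Dendritic cell genes summed to 1269 and 1192 FPKM in AAV-IL-27, against 1371 and 1290 FPKM in AAV-ctrl. Of these 12, 1 was called higher and 3 lower (33.3% called, against 39.0% over all genes). The part of these cell types, and of neutrophils and monocytes, in the rise of Ly6a and Ly6c was not tested.

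**Figure D5:**
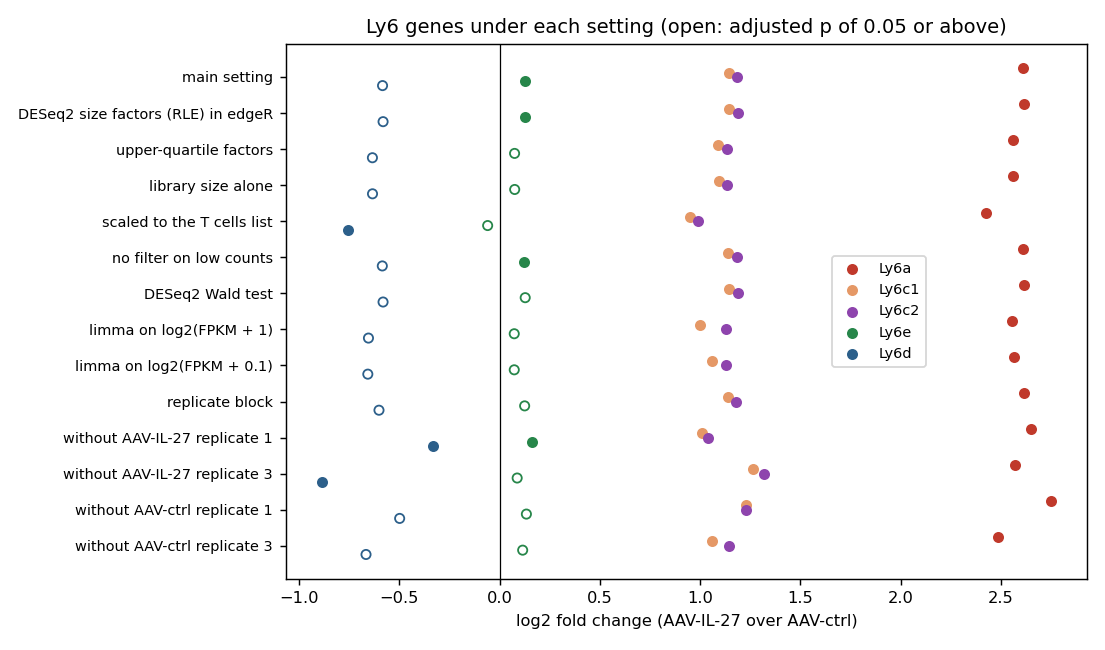
Log2 fold change (AAV-IL-27 over AAV-ctrl) of the 5 genes under the main setting and 13 others, 1 row per setting; filled points passed an adjusted p of 0.05 and open points did not. Ly6a, Ly6c1 and Ly6c2 are filled in every row, while Ly6e passed under 3 and Ly6d under 3 of the 13 other settings.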

How the data were processed

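The authors deposited 1 table with 2 columns per library. The first holds expected counts, which the authors deposited as estimates of the reads per gene that need not be whole (64.9% to 65.1% of values per library were whole within 0.005). The second was taken as FPKM that the authors deposited, since the file headers name no unit and the values move with count, length and library total. Per the submitters' processing notes, the tools were RSEM 1.2.12, Bowtie2 2.2.5, HISAT2 2.0.4 and DESeq2 1.4.5 with the build GRCm38.p6, their roles not being stated. No source used here says whether strand entered the counting.

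The expected counts were rounded and filtered with filterByExpr, scaled by TMM and tested with edgeR 4.0.16 (quasi-likelihood, robust, no block, two-sided) in R 4.3.3, with Benjamini-Hochberg adjustment over 12887 genes and a threshold of 0.05. SE is the log2 fold change divided by the square root of F. FPKM served for description. The fit was tested on simulated data. Alternatives used DESeq2 1.42.0, limma 3.58.1 on log2(FPKM + 1) and log2(FPKM + 0.1), other scalings, no filter, a replicate block and left-out libraries. Members, gene lists and the rule for named genes (cluster genes with a row, called genes of the window, the nearest 3 genes, and at most 4 of each other list) were chosen with earlier results of these data known, and a few further genes were added once their values had been looked at. Some genes of the lists are not reported by name here. Sequence identities are global alignments by Biopython 1.88. Sequences and coordinates come from RefSeq, and transcripts from GENCODE, both GRCm38. P-values of edgeR rest on the spread between 2 mice per group, moderated by a spread shared over all genes (median prior degrees of freedom 7.18). A fit with 1 library left out has no spread within 1 of its groups. Replicates were no duplicates of each other: the chi-square of their counts, per degree of freedom, was 6.47 in AAV-IL-27, 2.49 in AAV-ctrl and 40.4 to 45.3 across groups. Counting intervals cover counting error only.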

Additional observations from a re-analysis of the deposited data

How the results depend on the processing

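Ly6a, Ly6c1, Ly6c2 and the sum of both Ly6C genes kept their direction and their call under all 13 alternatives. Ly6e lost its call under the following settings, with its log2 fold change in brackets. They were upper-quartile factors (0.0742), library size alone (0.0747), DESeq2 (0.127), limma on log2(FPKM + 1) (0.0724) and on log2(FPKM + 0.1) (0.0725) and the replicate block (0.124). Its log2 fold change turned to -0.0602, without a call, when scaled to the T cell list. Ly6d passed under that scaling (-0.758), where edgeR's prior degrees of freedom were infinite. Left-out libraries gave 0.0871 to 0.162 for Ly6e and -0.886 to -0.335 for Ly6d. The count of called genes was 3243 with DESeq2 and 2635 to 4886 with a library left out, lowest with AAV-ctrl replicate 1 left out, and 2743 with AAV-ctrl replicate 3 left out. With the replicate block it was 4971, and the block changed the call of no member besides Ly6e. The labels state no pairing by replicate number. The differences of replicate 1 minus replicate 3 in the groups had an r of -0.0227 over 10542 genes. With 1 such difference per group, this r cannot show whether replicates of a number shared a batch. Of the 55 other genes named, 715 values under alternatives were computed, after the data were seen, of which 653 kept direction and call; Them6 turned to 0.0549 without AAV-IL-27 replicate 3 and 0.0220 without AAV-ctrl replicate 1, and did not pass either way. Other uncalled genes changed sign: when scaled to the T cell list Ifi35 (-0.000154), Ifit1 (-0.0765), Papss1 (-0.0610), Hspbp1 (-0.0627), Cad (-0.0634) and Cd44 (-0.113). With 1 library left out, Ifit1 lay between -0.156 and 0.439 and Them6 between -0.165 and 0.0549. The cause of these changes was not tested. Ly6g, with 1 count in AAV-ctrl, is limited by depth.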
